A study of Mus musculus with 12 samples.

Results

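The genes described here are 35 genes of glycolysis and glucose use, taken by symbol from the count and TPM tables of mouse lung (TPM is a level scaled for gene length and library depth). They were chosen by function: 17 glycolytic enzymes, 2 lactate dehydrogenases, 2 glucose and 2 lactate transporters, 2 regulators of phosphofructokinase, 6 genes of pyruvate entry into mitochondria and 4 of the pentose phosphate pathway. The tables list 55491 genes, 17909 of which passed a filter on low counts, and all 35 genes passed it. They fill 36 rows, because Aldoa has a second entry (ENSMUSG00000114515) with 2 to 15 counts per library that did not pass the filter and is not used.

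Bulk RNA sequencing was done on whole lungs of mice given bleomycin, a drug whose delivery to the airways injures the lung and leaves fibrosis. All 12 mice were wild-type (WT) C57BL/6J males aged 10 weeks, and every one had been given bleomycin through the oropharynx, 0.0125 U each or roughly 0.5 U/kg. The Day 14 group (4 mice) was taken before any treatment. The Day 21 vehicle group (4 mice) received intravenous phosphate-buffered saline, and the Day 21 NP group (4 mice) received nanoparticles suspended in it. These nanoparticles, 609.22 ± 15.30 nm across, have a core of poly(lactide-co-glycolide) (PLG) under a coat of poly(ethylene-alt-maleic anhydride) (PEMA). Each of the 5 retro-orbital injections carried 2 mg, with 1 injection daily that began on day 14 and ended on day 18. No uninjured lung is among these libraries, so day 14 is the reference and not a healthy state, and RNA came from all 5 lobes, freed of the large airway and trachea, with every cell type of the lung mixed.

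Glycolysis splits glucose into pyruvate in the cytosol, first spending ATP in its upper steps and then returning ATP and NADH in its lower steps. Pyruvate is then either reduced to lactate, which leaves the cell with a proton through monocarboxylate transporters, or carried into the mitochondrion and oxidised by pyruvate dehydrogenase. Activated macrophages, neutrophils, dividing cells and myofibroblasts are known to use glycolysis heavily, and the pentose phosphate pathway branches from it to make NADPH and ribose.

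The libraries held 24138582 to 42714693 counts on genes. One library stood apart: in nanoparticle mouse 3, the summed TPM of 11 neutrophil markers (S100a8, S100a9, Csf3r and others) was 5895, against 181 to 615 in the other 11 libraries, and that of 12 alveolar macrophage markers was 2468, against 889 to 1749. No neutrophil or alveolar macrophage marker was at 0 in all libraries. Results that turn on this lung are therefore given with and without it. Markers of alveolar type 2, alveolar type 1, endothelial and airway cells were present in every library, as the lung label implies.

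At the level of the whole list, the 35 genes summed to 3988 to 4274 TPM in the Day 14 lungs, 3472 to 3587 in the vehicle lungs and 3401 to 4031 in the nanoparticle lungs. The 17 glycolytic enzymes made up most of this. Their sum was 2745, 2809, 2767 and 2526 TPM in Day 14 mice 1 to 4, 2131, 2198, 2232 and 2236 TPM in vehicle mice 1 to 4, and 2217, 2209, 2509 and 2102 TPM in nanoparticle mice 1 to 4. Every day 21 lung lay below every Day 14 lung, with nanoparticle mouse 3 the nearest to the Day 14 range. In whole lung, fewer cells of a type and less RNA per cell cannot be told apart. Gapdh alone averaged 733 TPM over the 12 libraries and Aldoa 515.9 TPM, while Hk3, Eno2 and Slc2a3 averaged 3.33 to 5.26 TPM.

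Levels and changes were read as follows. A gene is said to have risen or fallen only where edgeR's quasi-likelihood test, fitted on the counts of all 12 libraries, gave an adjusted p under 0.05 (Benjamini-Hochberg over the 17909 genes). Changes are in log2 units with their standard error (SE), and p is two-sided. The comparisons of each day 21 group with day 14 share the same 4 Day 14 lungs, so they are set side by side and are not independent of each other.

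From day 14 to day 21 with vehicle, 7 of the 35 genes fell and none rose: Pfkl in the upper part of glycolysis, Gapdh, Pgk1, Pgam1, Eno1 and Pkm in the lower part, and Ldha. Of all genes tested, 10.3% passed the threshold in this comparison, 6.51% falling and 3.79% rising. The median change of the 35 genes was −0.17, against 0.003 for all genes tested. At an unadjusted p under 0.05, 20 of the 35 genes passed, against 27.3% of all genes. Scaling by upper quartile or by library totals gave 6 lower and 2 higher, Ldhb and Pfkp, in place of 7 and 0. With nanoparticles, the same 7 genes fell from day 14, Aldoc and Tpi1 fell as well, and 5 genes rose: Slc2a3, Pfkp, Eno3, Pdk1 and Pdk2. Without a filter on low counts, or with 2 groups per fit, only Eno3 of the 5 rose, and by limma on TPM only Slc2a3, while limma on FPKM or on unfiltered TPM called none of them higher. In these fits 5 to 9 genes were lower. The background was 14.7% of genes tested, with 8.56% falling and 6.16% rising, and the median change of the 35 genes was −0.09, against 0.006 for all genes.

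**Figure D1:**
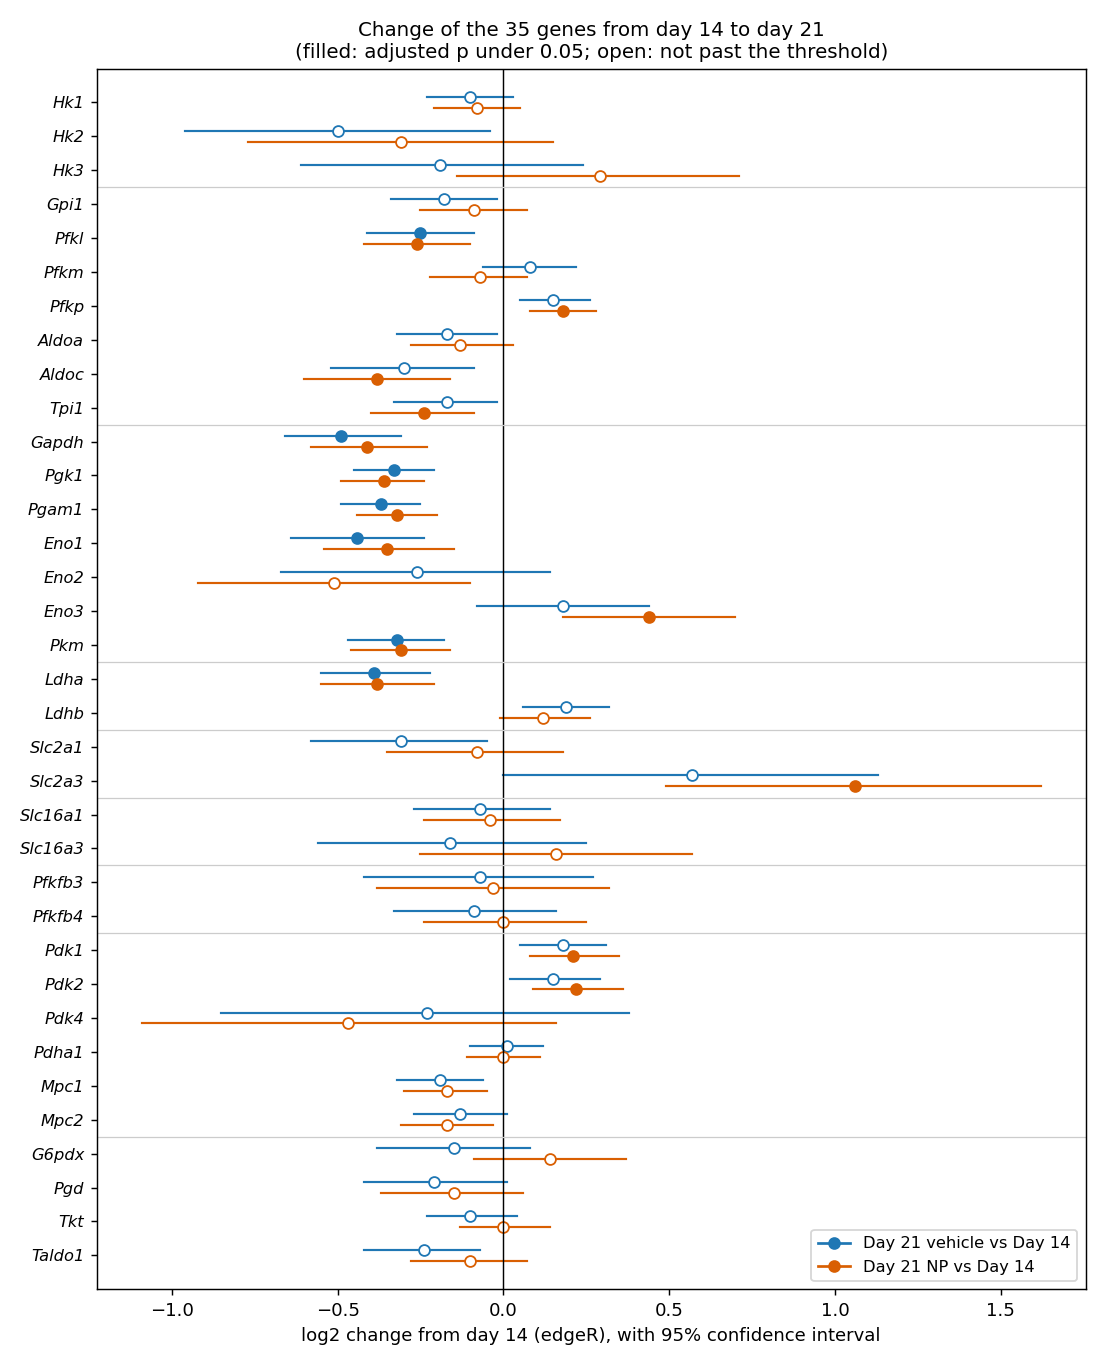
Log2 change from day 14 (x axis, edgeR, with 95% confidence intervals) of each of the 35 genes (y axis, grouped by role) in the vehicle lungs (blue) and the nanoparticle lungs (orange), 4 mice per group. Filled points passed the threshold: 7 genes in the vehicle lungs, all lower, and 14 in the nanoparticle lungs, 9 lower and 5 higher.

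The lower part of the pathway from Gapdh to Pkm held 5 of the 7 genes that fell with vehicle. Gapdh (ENSMUSG00000057666, chr6:125161715-125166467, GRCm38, minus strand) encodes glyceraldehyde-3-phosphate dehydrogenase, which makes the pathway's NADH. Its level was 942, 932, 885 and 798 TPM in Day 14 mice 1 to 4, 579, 661, 666 and 670.3 TPM in the vehicle mice, and 662, 643, 739.5 and 620.1 TPM in the nanoparticle mice. The day 21 lungs did not overlap the Day 14 lungs in either group, and vehicle mouse 1 was the lowest of all 12. Gapdh fell by 0.49 (SE 0.08, adjusted p = 0.00386, edgeR) with vehicle and by 0.41 (SE 0.08, adjusted p = 0.00638, edgeR) with nanoparticles. Stated as a percentage, Gapdh, often taken as a constant reference for other genes, fell by 28.6% with vehicle and fell by 24.5% with nanoparticles.

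Pgk1 (ENSMUSG00000062070, chrX:106187100-106203699, plus strand) encodes phosphoglycerate kinase, the first step that returns ATP. Its TPM was 127, 123, 134 and 123 at day 14, 96.4, 103, 103 and 103 with vehicle, and 101, 97.9, 105 and 93.2 with nanoparticles. Pgam1 (ENSMUSG00000011752, chr19:41911923-41918660, plus strand), a phosphoglycerate mutase, stood at 134, 131, 143 and 136 TPM at day 14, 103, 107, 105 and 107 with vehicle, and 109, 113, 117 and 101 with nanoparticles. For both genes every day 21 lung was below every Day 14 lung, including nanoparticle mouse 3. Pgk1 fell by 0.33 (SE 0.06, adjusted p = 0.00437) and 0.36 (SE 0.06, adjusted p = 0.00181) in the vehicle and nanoparticle groups by edgeR. Pgam1 fell by 0.37 (SE 0.06, adjusted p = 0.00272) and 0.32 (SE 0.06, adjusted p = 0.00333).

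Enolase 1 and pyruvate kinase close the pathway. Eno1 (ENSMUSG00000063524, chr4:150236721-150248879, plus strand) stood at 184, 215, 200.2 and 178 TPM at day 14, 142, 149, 141 and 149 with vehicle, and 149.8, 154, 178 and 130.5 with nanoparticles. The vehicle lungs lay wholly below day 14, whereas nanoparticle mouse 3 reached the lowest Day 14 lung, at 178.36 against 178.09 TPM. Eno1 fell by 0.44 (SE 0.09, adjusted p = 0.0108) with vehicle and 0.35 (SE 0.09, adjusted p = 0.0232) with nanoparticles by edgeR. Its nanoparticle call was lost without Day 14 mouse 3 or without nanoparticle mouse 1, 2 or 4 (adjusted p = 0.0538 to 0.0723), and in the absence of nanoparticle mouse 3 the change was −0.42. Pkm (ENSMUSG00000032294, chr9:59656368-59679375, plus strand), whose products include both the M1 and M2 forms of pyruvate kinase, not separated here, had 358, 353, 365 and 320.4 TPM at day 14, 275, 283, 289.9 and 284 with vehicle and 283, 287, 311 and 266 with nanoparticles. No day 21 lung reached the Day 14 range, and Pkm fell by 0.32 (SE 0.07, adjusted p = 0.0120) and 0.31 (SE 0.07, adjusted p = 0.0115).

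Ldha and Ldhb, the paired subunits of lactate dehydrogenase, had changes of opposite sign. The Ldha subunit (ENSMUSG00000063229, chr7:46841475-46855627, plus strand) favours the making of lactate from pyruvate, and the Ldhb subunit (ENSMUSG00000030246, chr6:142490249-142507957, minus strand) the reverse. Ldha stood at 329, 325, 357 and 319 TPM at day 14, 249, 263, 246 and 272 with vehicle, and 269, 243, 292 and 235 with nanoparticles. Ldhb stood at 126, 119, 127 and 127 TPM at day 14, 147, 146, 138 and 145 with vehicle, and 131, 141, 127 and 153 with nanoparticles. Ldha was below the Day 14 range in all 8 day 21 lungs, while Ldhb was above it in the 4 vehicle lungs and overlapped it with nanoparticles. Ldha fell by 0.39 (SE 0.08, adjusted p = 0.00911) with vehicle and 0.38 (SE 0.08, adjusted p = 0.00670) with nanoparticles, and Ldhb did not pass the threshold, at 0.19 (SE 0.06, adjusted p = 0.0623) and 0.12 (SE 0.06, adjusted p = 0.191) by edgeR.

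**Figure D2:**
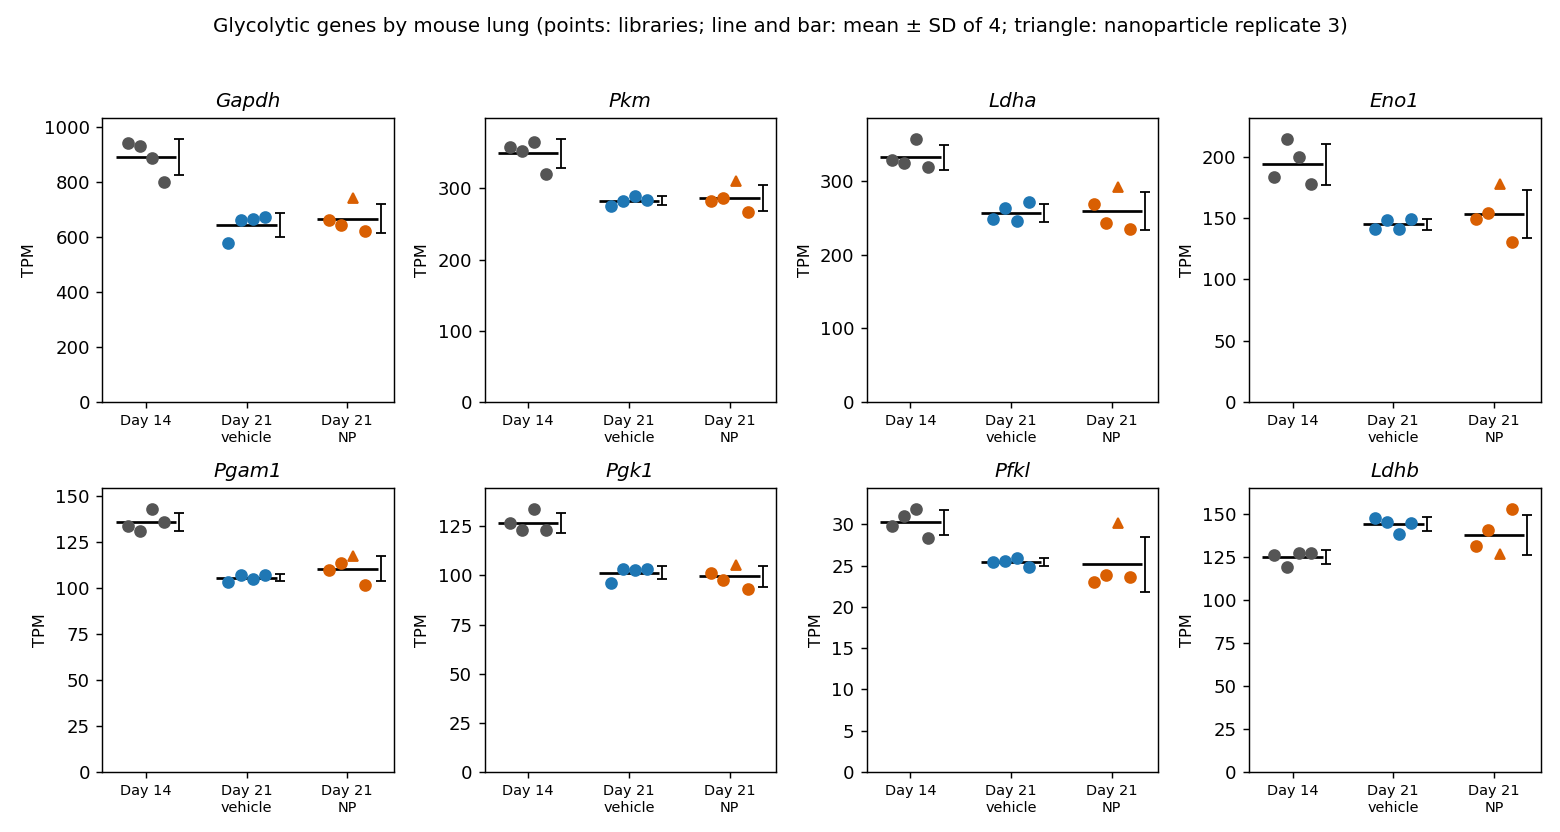
TPM (y axis) of 8 genes in each lung, by group (x axis). Points are libraries, lines and bars the mean ± SD of 4, and the triangle is nanoparticle mouse 3 (labelled replicate 3). Gapdh, Pkm, Ldha, Pgam1 and Pgk1 do not overlap between day 14 and either day 21 group, and Ldhb is higher in all 4 vehicle lungs than in any Day 14 lung.

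The call on Gapdh, Pgk1, Pgam1, Pkm and Ldha held in both day 21 groups in each of 23 other fits, which left out each library in turn or changed the scaling, filter, tool or unit. Named near-identical copies of these genes held at most 4.01% of the parent gene's counts (Pgam1) and 0.886% or less for Eno1, Gapdh, Ldha and Pgk1.

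Pfkl, Pfkm and Pfkp encode phosphofructokinase, the committed step of glycolysis, and their changes were unlike. Pfkl (ENSMUSG00000020277, chr10:77986947-78010083, minus strand), the liver type, stood at 29.8, 31.0, 31.8 and 28.4 TPM at day 14, 25.4, 25.5, 25.9 and 24.8 with vehicle, and 23.0, 23.8, 30.1 and 23.6 with nanoparticles. Nanoparticle mouse 3 alone among the day 21 lungs lay in the Day 14 range. Pfkl fell by 0.25 (SE 0.08, adjusted p = 0.0492) with vehicle and 0.26 (SE 0.08, adjusted p = 0.0367) with nanoparticles by edgeR. The vehicle call is fragile: it was lost in 11 of the 12 fits that left out 1 library (adjusted p = 0.0553 to 0.140), and held without nanoparticle mouse 3, which enters the shared fit (−0.24, adjusted p = 0.0101). The nanoparticle call was lost without Day 14 mouse 1 or 3, vehicle mouse 1 or 3, or nanoparticle mouse 1, 2 or 4 (adjusted p = 0.0510 to 0.107). That call held without nanoparticle mouse 3 (−0.34, adjusted p = 0.00228, edgeR).

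Pfkp (ENSMUSG00000021196), the platelet type, stood at 29.8, 29.9, 28.9 and 30.1 TPM at day 14, 32.1, 33.2, 33.7 and 33.7 with vehicle, and 33.4, 32.3, 30.9 and 33.4 with nanoparticles. All 8 day 21 lungs were above all 4 Day 14 lungs. Pfkp rose by 0.18 (SE 0.05, adjusted p = 0.0245, edgeR) with nanoparticles, and its change with vehicle was 0.15 (SE 0.05, adjusted p = 0.0570). The rise lost its call without Day 14 mouse 1 or nanoparticle mouse 1, 2 or 4 (adjusted p = 0.0540 to 0.0782). Pfkm, the muscle type, stood between 14.6 and 18.7 TPM in all lungs, with changes of 0.08 (SE 0.07) and −0.07 (SE 0.07), neither past the threshold, and −0.01 with nanoparticles without mouse 3.

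Aldolase and triosephosphate isomerase carry out the next steps of the upper part. Aldoc (ENSMUSG00000017390), an aldolase isozyme, stood at 10.3, 9.59, 9.20 and 9.35 TPM at day 14, 6.69, 8.87, 8.89 and 8.47 with vehicle, and 7.52, 7.37, 8.71 and 7.32 with nanoparticles. It did not overlap day 14 in either group, and it fell by 0.38 (SE 0.10, adjusted p = 0.0246, edgeR) with nanoparticles, against −0.30 (SE 0.10, adjusted p = 0.0698) with vehicle. Tpi1 (ENSMUSG00000023456), triosephosphate isomerase, stood at 134, 145, 145 and 126 TPM at day 14, 117, 126, 119.6 and 129.9 with vehicle, and 119.7, 113, 128 and 109.9 with nanoparticles. Both day 21 groups overlapped the Day 14 range, and Tpi1 fell by 0.24 (SE 0.07, adjusted p = 0.0362, edgeR) with nanoparticles. The Aldoc call was lost without Day 14 mouse 1 or 3 or nanoparticle mouse 1, 2 or 4 (adjusted p = 0.0569 to 0.0751). It held without nanoparticle mouse 3 (−0.46, adjusted p = 0.0083, edgeR). The Tpi1 call was lost without Day 14 mouse 1, 2 or 3, vehicle mouse 3, or nanoparticle mouse 1, 2 or 4 (adjusted p = 0.05004 to 0.103).

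Aldoa (ENSMUSG00000030695), the main aldolase and the second most abundant of the 35 genes, stood at 548, 562, 564 and 527 TPM at day 14, 508, 463, 499 and 490.4 with vehicle, and 485, 491, 575 and 479.6 with nanoparticles. The vehicle lungs lay below the Day 14 range, and nanoparticle mouse 3 was the highest of all 12. Its changes were −0.17 (SE 0.07, adjusted p = 0.131) and −0.13 (SE 0.07, adjusted p = 0.248) by edgeR. Without nanoparticle mouse 3 the Aldoa change with nanoparticles was −0.18 (adjusted p = 0.0684, edgeR). Gpi1, glucose-6-phosphate isomerase, also missed the threshold (−0.18 and −0.09, SE 0.07 each) while its vehicle lungs, 139 to 149.8 TPM, lay below the Day 14 lungs, 151 to 182 TPM. Without nanoparticle mouse 3 its nanoparticle change was −0.16.

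The hexokinases, which trap glucose by phosphorylation, did not pass the threshold in any comparison. Hk1 (ENSMUSG00000037012), the most abundant, stood at 40.8, 40.0, 42.4 and 41.7 TPM at day 14, 37.3, 38.0, 38.2 and 42.4 with vehicle and 38.1, 41.7, 39.1 and 37.5 with nanoparticles, overlapping throughout. Hk2, the isozyme that insulin and hypoxia induce, spread widely at day 14 (6.72 to 12.9 TPM) and stood at 6.66 to 8.53 with vehicle and 6.04 to 11.4 with nanoparticles. Its changes were −0.50 (SE 0.21, adjusted p = 0.148) and −0.31 (SE 0.21, adjusted p = 0.340) by edgeR, with a 95% interval of −0.96 to −0.04 for vehicle. Without nanoparticle mouse 3 the nanoparticle change was −0.49 (adjusted p = 0.105).

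Eno3 and Eno2, the muscle and neuronal enolases, are minor in lung. Eno3 (ENSMUSG00000060600) stood at 17.6, 24.1, 18.2 and 20.4 TPM at day 14, 27.7, 21.4, 25.0 and 21.3 with vehicle, and 28.6, 25.3, 22.2 and 26.8 with nanoparticles, and Day 14 mouse 2 overlapped both day 21 groups. Eno3 rose by 0.44 (SE 0.12, adjusted p = 0.0293, edgeR) with nanoparticles, against 0.18 (SE 0.12, adjusted p = 0.359) with vehicle. That call was lost without Day 14 mouse 1 or 3 or nanoparticle mouse 1, 2 or 4 (adjusted p = 0.0626 to 0.0922). Markers of the heart muscle that sheathes the pulmonary veins summed to 367 to 457 TPM at day 14, 320.2 to 643 with vehicle and 233 to 653 with nanoparticles, with 0 of 12 called in either comparison, and 3 of 7 skeletal muscle markers passed the filter, 0 of them called. Their part in the Eno3 result was not tested. Eno2 stood between 2.12 and 5.86 TPM with changes of −0.26 (SE 0.19) and −0.51 (SE 0.19, adjusted p = 0.0894); in vehicle mouse 2, at 5.86 TPM, it was well above the other 11 libraries, so its vehicle mean TPM (3.61) did not lie below that of day 14 (3.58).

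Across the glucose transporters, Slc2a1 (GLUT1, the widespread basal carrier) and Slc2a3 (GLUT3, a high-affinity carrier prominent in neurons and leukocytes) had changes of opposite sign. Slc2a1 (ENSMUSG00000028645) stood at 14.2, 12.9, 14.9 and 13.9 TPM at day 14, 12.1, 10.4, 11.96 and 10.3 with vehicle, and 12.1, 11.1, 16.7 and 12.1 with nanoparticles. Its vehicle lungs lay below the Day 14 range, with a change of −0.31 (SE 0.12, adjusted p = 0.117, edgeR), and with nanoparticles the change was −0.08 (SE 0.12), or −0.23 (adjusted p = 0.103) without mouse 3. Slc2a3 (ENSMUSG00000003153, chr6:122727809-122801640, minus strand) stood at 3.52, 4.14, 3.02 and 3.63 TPM at day 14, 5.33, 4.79, 5.63 and 4.8 with vehicle, and 4.50, 6.14, 12.3 and 5.26 with nanoparticles. All 8 day 21 lungs were above all 4 Day 14 lungs, and nanoparticle mouse 3 was far above the rest.

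Slc2a3 rose by 1.06 (SE 0.26, adjusted p = 0.0198, edgeR) with nanoparticles, and its change with vehicle was 0.57 (SE 0.26, adjusted p = 0.180). The nanoparticle call was lost without Day 14 mouse 1 or 3 (adjusted p = 0.0599 to 0.0635). Without nanoparticle mouse 3 the rise was 0.68 with nanoparticles (adjusted p = 0.00614) and 0.58 with vehicle (adjusted p = 0.0120). In that fit 14 of the 35 genes passed the threshold with vehicle, the 7 above with Aldoc, Slc2a1, Mpc1 and Taldo1 lower and Pfkp, Ldhb and Slc2a3 higher, and 16 passed with nanoparticles, the 14 above with Mpc1 and Pgd lower.

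Monocarboxylate transporters, which move lactate and pyruvate across the plasma membrane, did not pass the threshold. Slc16a1 (MCT1; ENSMUSG00000032902) stood at 12.2, 10.2, 13.7 and 14.4 TPM at day 14, 13.7, 11.6, 11.8 and 11.4 with vehicle and 11.7, 11.2, 12.8 and 13.5 with nanoparticles, with changes of −0.07 (SE 0.09) and −0.04 (SE 0.10). Slc16a3 (MCT4, the exporter of strongly glycolytic cells) stood at 10.8, 10.2, 11.3 and 9.54 TPM at day 14, 11.5, 8.91, 10.6 and 8.33 with vehicle and 11.2, 10.2, 20.9 and 11.7 with nanoparticles. Apart from nanoparticle mouse 3, all its values lay between 8.33 and 11.7 TPM. The Slc16a3 changes were −0.16 (SE 0.19) with vehicle and 0.16 (SE 0.19) with nanoparticles, the latter −0.13 without nanoparticle mouse 3.

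Pfkfb3 and Pfkfb4, which set the level of fructose 2,6-bisphosphate and through it the pace of phosphofructokinase, overlapped between all groups. Pfkfb3 (ENSMUSG00000026773) stood at 51.4, 35.5, 46.9 and 42.8 TPM at day 14, 49.0, 30.8, 48.4 and 42.1 with vehicle and 48.5, 34.8, 42.3 and 46.0 with nanoparticles. Its changes were −0.07 (SE 0.16) and −0.03 (SE 0.16), and those of Pfkfb4 were −0.09 (SE 0.11) and 0.00 (SE 0.11). Without nanoparticle mouse 3 the nanoparticle change of Pfkfb4 was −0.13.

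At the entry of pyruvate into the mitochondrion, 2 of the 6 genes rose with nanoparticles, and both are kinases that switch off pyruvate dehydrogenase by phosphorylation. Pdk1 (ENSMUSG00000006494) stood at 14.8, 13.2, 12.6 and 15.2 TPM at day 14, 17.2, 14.4, 16.3 and 12.8 with vehicle, and 18.2, 16.7, 13.4 and 16.2 with nanoparticles. Pdk2 (ENSMUSG00000038967) stood at 24.2, 27.7, 22.8 and 26.4 TPM at day 14, 28.3, 27.5, 29.6 and 27.3 with vehicle, and 29.0, 29.9, 28.8 and 30.2 with nanoparticles. Pdk2 was above the Day 14 range in all 4 nanoparticle lungs, while Pdk1 overlapped it in both groups. Pdk1 rose by 0.21 (SE 0.06, adjusted p = 0.0347) and Pdk2 by 0.22 (SE 0.06, adjusted p = 0.0318) with nanoparticles by edgeR. With vehicle they changed by 0.18 (SE 0.06, adjusted p = 0.0793) and 0.15 (SE 0.06, adjusted p = 0.127), short of the threshold. Pdk1 lost its call without Day 14 mouse 3 or nanoparticle mouse 1, 2 or 4, and Pdk2 without Day 14 mouse 1 or 3 or nanoparticle mouse 2 or 4 (adjusted p = 0.0708 to 0.102).

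Pdk4, the kinase most responsive to fasting, was variable at day 14 (4.17 to 11.8 TPM), and its changes were −0.23 (SE 0.28) and −0.47 (SE 0.28). Pdha1, the catalytic subunit that these kinases phosphorylate, was level at 98.5 to 107 TPM in all 12 lungs, with changes of 0.01 and 0.00 (SE 0.05 each). Mpc1 (ENSMUSG00000023861), a subunit of the mitochondrial pyruvate carrier, stood at 173, 156, 161 and 171 TPM at day 14, 152, 152, 143 and 142 with vehicle and 155, 136, 162 and 148 with nanoparticles. It was below the Day 14 range in all 4 vehicle lungs, with changes of −0.19 (SE 0.06, adjusted p = 0.0572) and −0.17 (SE 0.06, adjusted p = 0.0661) by edgeR. Its partner Mpc2 gave −0.13 (SE 0.07) and −0.17 (SE 0.07), also short of the threshold.

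No gene of the pentose phosphate pathway passed the threshold. Taldo1 (ENSMUSG00000025503), the transaldolase of the non-oxidative branch, stood at 206, 231, 209 and 202 TPM at day 14, 176, 187, 179 and 181 with vehicle and 198, 202, 229 and 173 with nanoparticles. Its vehicle lungs lay below day 14 (−0.24, SE 0.08, adjusted p = 0.0661, edgeR) and its nanoparticle lungs overlapped it (−0.10, SE 0.08). Pgd, an NADPH-making dehydrogenase, gave −0.21 (SE 0.10) and −0.15 (SE 0.10). G6pdx, the entry enzyme, gave −0.15 (SE 0.11) and 0.14 (SE 0.11), and the transketolase Tkt −0.10 (SE 0.06) and 0.00 (SE 0.06). Without nanoparticle mouse 3 the nanoparticle changes were −0.17 for Taldo1, 0.01 for G6pdx and −0.27 for Pgd, the last then past the threshold (adjusted p = 0.0227, edgeR).

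Counted by overlap instead of by test, 14 genes were lower and 3 higher (Pfkp, Ldhb and Slc2a3) in all 4 vehicle lungs than in all 4 Day 14 lungs, against a background of 8.98% of genes lower and 5.64% higher. With nanoparticles, 7 genes were lower (Aldoc, Gapdh, Pgk1, Pgam1, Eno2, Pkm and Ldha) and 3 higher (Pfkp, Slc2a3 and Pdk2), against 8.68% and 6.97% of genes.

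Isozyme shares use only ratios within a library. There were 16 such shares and 48 exact two-sided permutation tests over the 3 comparisons. With 4 lungs against 4 the smallest p this test allows is 0.0286. After Benjamini-Hochberg adjustment over the 48 none passed 0.05 (smallest 0.114). An adjusted p under 0.05 would have needed most of the 48 tests to sit at that smallest p. This outcome therefore cannot decide whether any share shifted. The Ldhb share of Ldha and Ldhb was 27.3% ± 0.990 at day 14, 35.9% ± 1.01 with vehicle and 34.8% ± 4.07 with nanoparticles (SD, n = 4). All 8 day 21 lungs, from 30.2% in nanoparticle mouse 3 to 39.4% in nanoparticle mouse 4, were above the highest Day 14 lung, 28.5%. The Slc2a3 share of Slc2a1 and Slc2a3 was 20.4% ± 3.10 at day 14, 31.5% ± 0.678 with vehicle and 33.9% ± 6.76 with nanoparticles, and all 8 day 21 lungs again lay above day 14.

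Within phosphofructokinase the Pfkl share was 39.3% ± 1.249 at day 14 and 33.2% ± 0.507 with vehicle, without overlap, and 31.6% to 39.9% with nanoparticles, where mouse 3 gave the highest value. The Pfkp share stood at 38.6% ± 1.34 at day 14, 43.3% ± 0.841 with vehicle and 44.0% ± 2.19 with nanoparticles, without overlap in either group. Within enolase the Eno3 share went from 9.20% ± 0.944 to 13.8% ± 1.97 with vehicle and 14.3% ± 2.54 with nanoparticles, and the Eno1 share was correspondingly lower, 89.2% ± 0.920 against 84.1% ± 1.33 and 84.1% ± 2.76. The Aldoc share of aldolase was 1.72% ± 0.1002 at day 14 and 1.501% ± 0.0209 with nanoparticles, without overlap. From CPM in place of TPM, the share differences with vehicle were −2.98 points instead of −5.06 for Eno1 and 2.82 instead of 4.63 for Eno3, and the Aldoc share difference with nanoparticles was −0.443 points instead of −0.216. In all, 6 of 16 shares did not overlap day 14 in the vehicle lungs, 6 of 16 did not in the nanoparticle lungs, and none separated the nanoparticle from the vehicle lungs. Shares of the same sum depend on each other, as Eno1 with Eno3 and Pfkl with Pfkp, so these are not separate counts. No background of shares was computed. The TPM of single genes did not overlap day 14 for 14.6% of all genes tested with vehicle and 15.7% with nanoparticles, which is a different measure.

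**Figure D3:**
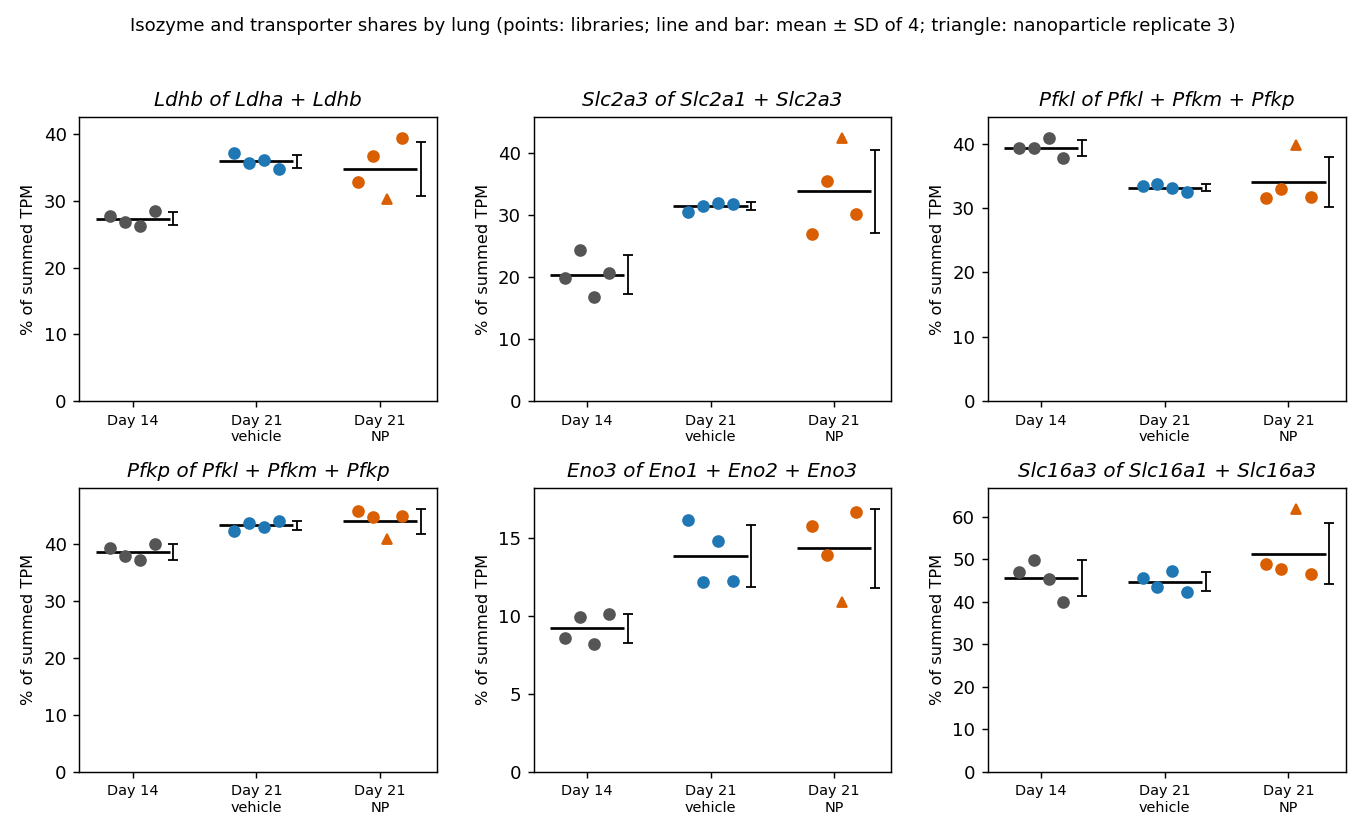
Share of the summed TPM (y axis, %) held by 1 isozyme or transporter in each lung, by group (x axis). Points are libraries, lines and bars the mean ± SD of 4, and the triangle is nanoparticle mouse 3. The Ldhb, Slc2a3, Pfkp and Eno3 shares are higher in all 8 day 21 lungs than in any Day 14 lung, and the Slc16a3 share overlaps.

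Marker levels of several cell types moved over the same week. Of all genes tested, 6.51% fell and 3.79% rose with vehicle, and 8.56% fell and 6.16% rose with nanoparticles. Dividing-cell markers (Mki67, Top2a and others) summed to 128 to 150.3 TPM at day 14, 41.0 to 85.1 with vehicle and 27.3 to 65.9 with nanoparticles, with 10 of 10 lower in both. SPP1-type macrophage markers (Spp1, Gpnmb, Trem2 and others) summed to 5030.0 to 5854 TPM, 2802 to 3917 and 2736 to 4173, with 8 and 4 of 11 lower. Scar fibroblast and myofibroblast markers (Cthrc1, Postn, Col1a1 and others) summed to 1563 to 2043, 1142 to 1498 and 972 to 1239, with 4 and 5 of 9 lower. Transitional epithelium markers (Krt8, Cldn4, Sfn and others) summed to 1392 to 1572, 1004 to 1167 and 977 to 1246, with 9 and 8 of 10 lower. Markers of monocytes and interstitial macrophages summed to 895 to 1052, 554 to 703 and 562 to 971, with 4 and 2 of 10 lower and 0 and 1 higher. Platelet markers (Ppbp, Gp9, Itga2b and others) summed to 36.3 to 49.0, 38.9 to 58.5 and 58.4 to 85.3, and 5 of 6 rose with nanoparticles and none with vehicle. Pfkp and Slc2a3 passed the threshold in that same nanoparticle comparison, and for both genes the vehicle lungs also lay above every Day 14 lung. A link of these genes to platelets was not tested. Among the remaining lists, alveolar type 2 and airway markers had 2 of 8 and 2 of 7 higher in both comparisons, alveolar type 1 markers 2 of 7 lower in both, and endothelial markers 0 and 1 of 8 higher. Alveolar macrophage markers had 1 lower and 2 higher of 12 with vehicle and 2 and 2 with nanoparticles, and immediate early genes of tissue handling 1 and 0 of 9 lower. Red blood cell, fat cell and lymphocyte markers had none called. Where only 1 or 2 genes of a list were called in a direction, they are too few to read as a change of that cell type. No marker of these lists was at 0 in all libraries. Vehicle mouse 1 had the lowest Gapdh of all 12 lungs and the lowest Pgk1 of the vehicle group. Within that group it also had the lowest sums for dividing cells, SPP1-type and alveolar macrophages, monocytes, scar fibroblasts and transitional epithelium. Its endothelial and lymphocyte sums were the highest of that group. Nanoparticle mouse 3 had the lowest dividing-cell sum of all 12, 27.3 TPM, and the neutrophil sum of 5895 TPM. Its Gapdh, Pgk1 and glycolytic enzyme sum were the highest of the 8 day 21 lungs. Each of these is a single lung. The part of these cell types in the changes of the 35 genes was not tested.

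Nanoparticle against vehicle lungs at day 21 is the comparison of treatment. None of the 35 genes passed the threshold, and the background was 0% of the 17909 genes by edgeR, with 762 genes (4.25%) at an unadjusted p under 0.05 and 19 genes called by DESeq2, none of them among the 35. The differences of the 35 genes ran from −0.25 to 0.49 with a median of 0.04, against 0.002 for all genes, and the TPM of the groups overlapped for each of the 35, whereas it did not for 3.07% of all genes tested (1.52% lower and 1.55% higher). At an unadjusted p under 0.05 there were 3: Hk3 (0.47, 95% interval 0.05 to 0.90), G6pdx (0.29, 0.06 to 0.53) and Pfkm (−0.15, −0.30 to −0.01), each with an adjusted p of 0.999 (edgeR). For the abundant enzymes the intervals were narrow. The difference in Gapdh was 0.08 (−0.10 to 0.26), in Pkm 0.02 (−0.13 to 0.17), in Ldha 0.01 (−0.16 to 0.17) and in Pgk1 −0.03 (−0.15 to 0.09). Without nanoparticle mouse 3 these were 0.01, −0.03, −0.06 and −0.06. Those of Slc2a3 (−0.06 to 1.04), Pdk4 (−0.86 to 0.39) and Hk2 (−0.28 to 0.65) were wide.

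**Figure D4:**
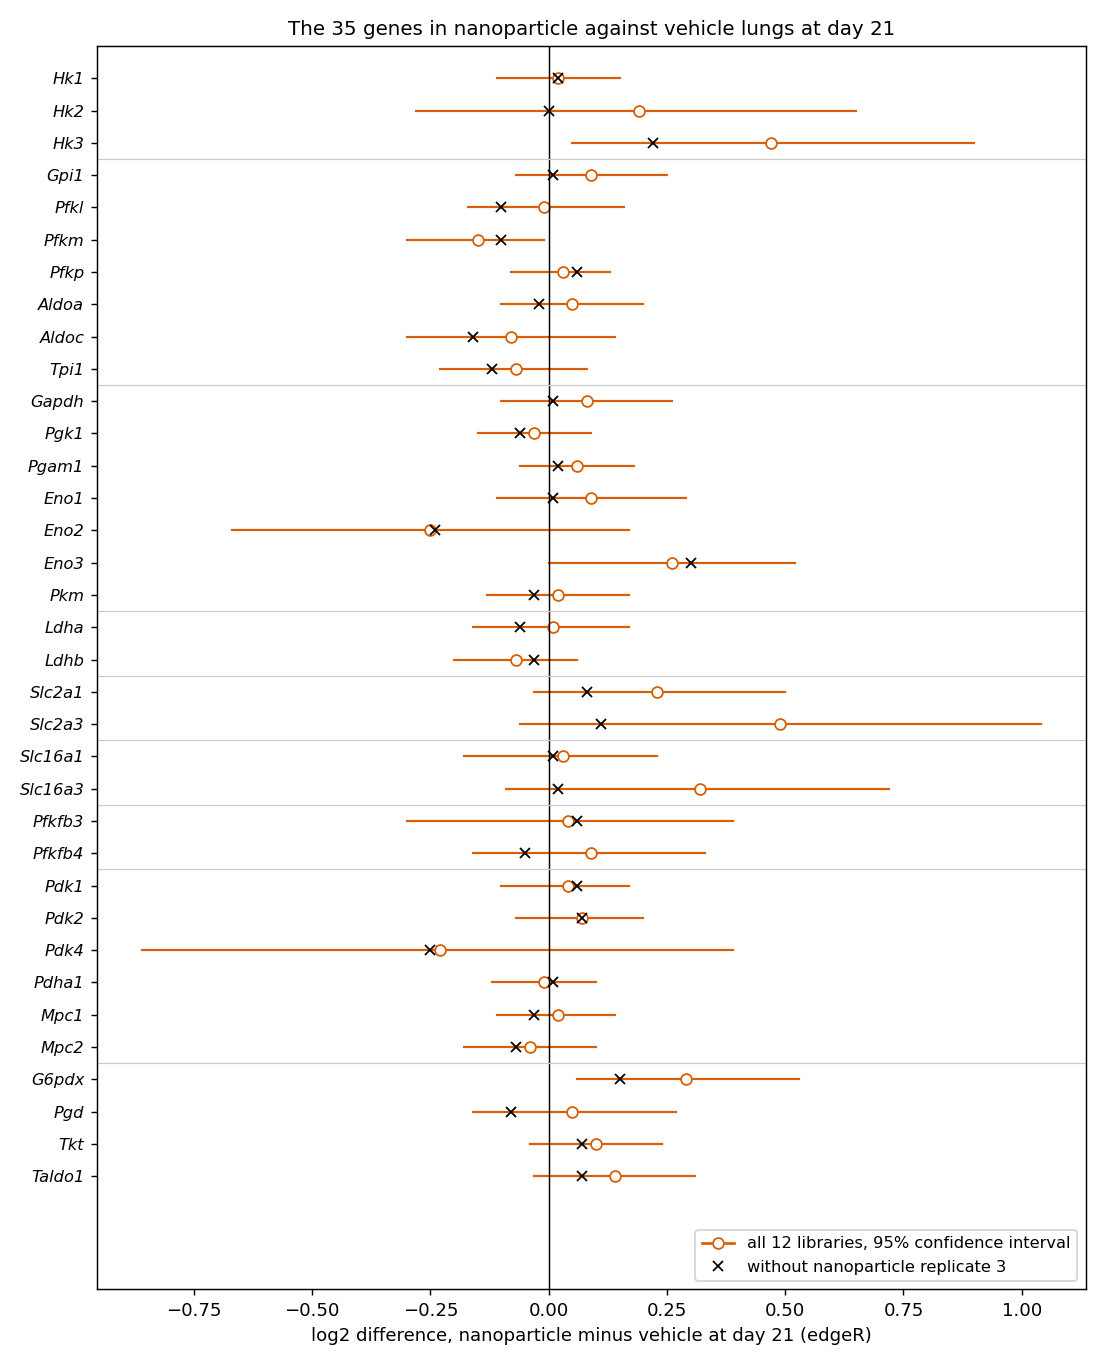
Log2 difference between nanoparticle and vehicle lungs at day 21 (x axis, edgeR) for each of the 35 genes (y axis, grouped by role). Open points and lines are the fit to all 12 libraries with 95% confidence intervals, and crosses are the fit without nanoparticle mouse 3. No gene passed the threshold in either, and the crosses of Hk3, Slc2a1, Slc2a3, Slc16a3 and G6pdx lie nearer to 0. Those of Eno3, Aldoc, Tpi1 and Pfkl, among others, lie farther from it.

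Several of the larger differences rest on nanoparticle mouse 3. It was the highest of the 8 day 21 lungs for 20 of the 35 genes (57.1%), against 16.3% of all genes tested. Hk3, the hexokinase of myeloid cells, stood at 4.31, 3.19, 4.57 and 5.78 TPM at day 14, 3.56, 4.14, 4.22 and 3.78 with vehicle, and 5.20, 4.78, 8.13 and 4.18 with nanoparticles. From day 14 it changed by −0.19 (SE 0.20) with vehicle and 0.29 (SE 0.20) with nanoparticles, or 0.04 without mouse 3. The 8.13 TPM of mouse 3 was the highest of all 12 lungs, as were its 12.3 TPM of Slc2a3, 20.9 of Slc16a3 and 56.5 of G6pdx. Without that lung the nanoparticle minus vehicle difference went from 0.47 to 0.22 for Hk3, from 0.49 to 0.11 for Slc2a3, from 0.32 to 0.02 for Slc16a3, from 0.23 to 0.08 for Slc2a1 and from 0.29 to 0.15 for G6pdx. Other differences grew in size, among them Eno3 (0.26 to 0.30), Aldoc (−0.08 to −0.16), Tpi1 (−0.07 to −0.12) and Pfkl (−0.01 to −0.10). The 11 neutrophil markers summed to 491, 445 and 458 TPM in the other 3 nanoparticle lungs, with 0 of 11 called in any comparison. The part of neutrophils in these values was not tested. Nanoparticle mouse 3 also had the highest alveolar macrophage sum, 2468 TPM, and the lowest dividing-cell sum, 27.3 TPM, of all 12 lungs. Leaving it out therefore cannot single out neutrophils.

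**Figure D5:**
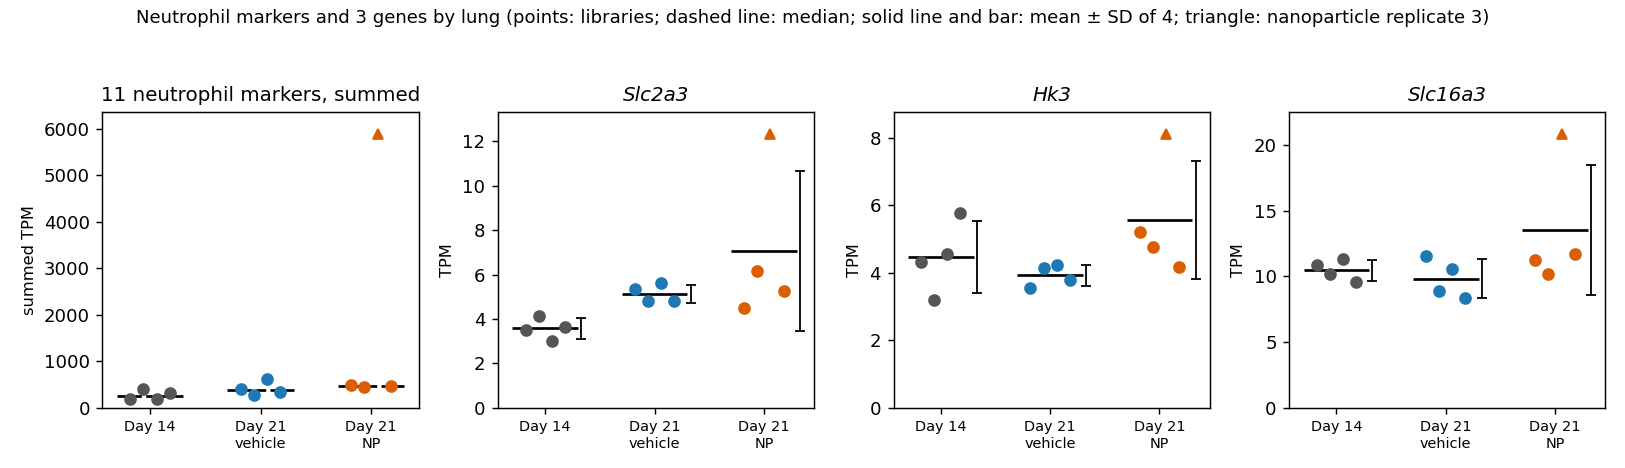
Summed TPM of 11 neutrophil markers (left, dashed line the group median) and TPM of Slc2a3, Hk3 and Slc16a3 (lines and bars the mean ± SD of 4) in each lung, by group (x axis). The triangle, nanoparticle mouse 3, is the highest of the 12 libraries in every panel, at 5895 summed TPM for the markers.

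Related genes outside the 35 give the setting, and their counts are set beside the 10.3% and 14.7% of all genes called with vehicle and with nanoparticles. Of 29 tested genes of glycolysis, gluconeogenesis and glucose transport, 2 fell with vehicle (6.9% called) and 3 fell and 2 rose with nanoparticles (17.2%), shares near that background. Slc5a1 (SGLT1), a sodium-coupled glucose carrier, fell by 0.64 (SE 0.14, adjusted p = 0.0139) and 0.80 (SE 0.14, adjusted p = 0.00355) by edgeR, and Minpp1, an inositol polyphosphate phosphatase, by 0.26 and 0.27 (SE 0.06 each). With nanoparticles Bsg (basigin, the chaperone of monocarboxylate transporters) also fell by 0.19 (SE 0.06), and Hkdc1, a hexokinase relative, and Slc2a6 (GLUT6) rose by 0.43 (SE 0.13) and 0.71 (SE 0.21). Of 8 genes of pyruvate dehydrogenase and its control, Pdp2, a phosphatase that opposes the kinases, rose with nanoparticles (0.25, SE 0.07), 1 gene of the 8. Of 7 further pentose phosphate genes, Prps2, which makes phosphoribosyl pyrophosphate, rose with nanoparticles (0.32, SE 0.08), which is 14.3%.

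Of 16 genes of glycogen and nucleotide sugars, 2 fell with vehicle and 3 with nanoparticles (18.8%), also near the background. Gys1, glycogen synthase, fell by 0.18 and 0.28 (SE 0.06 each), and the phosphoglucomutase Pgm1 by 0.25 and 0.28 (SE 0.07 each). Stbd1, a glycogen-binding protein, fell by 0.57 (SE 0.15) with nanoparticles. No gene in these lists rose with vehicle.

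Among 20 regulators of glycolysis, 10% were called with vehicle and 20% with nanoparticles. Myc, a transcription factor that activates many glycolytic genes, fell by 0.59 (SE 0.14, adjusted p = 0.0179) with vehicle and 0.46 (SE 0.14, adjusted p = 0.0389) with nanoparticles by edgeR. Txnip, which restrains glucose uptake, rose by 0.54 (SE 0.13, adjusted p = 0.0208) and 0.50 (SE 0.13, adjusted p = 0.0237). With nanoparticles Esrra, a nuclear receptor of energy metabolism, fell by 0.20 (SE 0.06) and its coactivator Ppargc1a rose by 0.41 (SE 0.13). Of 18 targets of hypoxia outside glycolysis, 3 fell and 1 rose with vehicle, and 3 fell and 2 rose with nanoparticles (22.2% and 27.8% called). Vegfa, the angiogenic growth factor, rose by 0.34 and 0.33 (SE 0.08 each), and Anln, which also serves cell division, fell by 1.03 and 1.22 (SE 0.16 each). Ankrd37 fell by 1.22 (SE 0.33) and the haem oxygenase Hmox1 by 0.33 (SE 0.08) with vehicle, and with nanoparticles Ddit4, an inhibitor of mTORC1, fell by 1.24 (SE 0.32), the collagen prolyl hydroxylase P4ha2 fell by 0.36 (SE 0.10) and Kdm3a rose by 0.32 (SE 0.06). None of these companion genes passed the threshold between nanoparticle and vehicle lungs.

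Promoter sequence is a feature the choice of genes did not use. RefSeq windows (GRCm38.p6) were found for 34 of the 35 genes, Slc2a3 being the one not matched. The 250 bases before each start site were searched on both strands for ACGTG and GCGTG, the core of the hypoxia response element, and for CACGTG, the E-box bound by Myc and its relatives, which contains ACGTG on both strands. ACGTG was in 38.2% of the 34 genes, against 18.5% of the 27025 genes that have such windows, GCGTG in 70.6% against 30.9%, and CACGTG in 14.7% against 6.86%. The 27025 include genes that did not pass the filter on low counts, whereas all of the 34 passed it. These are descriptions, not sites: the windows of the 34 genes also had a higher median GC content, 60.4% against 52.4%, and genes with several start sites had several windows. Either core was present in all 7 genes that fell in both day 21 groups, whose windows had a median GC content of 62.8%, but also in 91.2% of the 34 genes and in 41.5% of the 27025 genes.

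Promoters of 3 of these 7 genes are shown because they differ in which letters they hold; matches to any of the 3 motifs, on either strand, are in capitals.
Ldha, chr7:46845554-46845803, plus strand: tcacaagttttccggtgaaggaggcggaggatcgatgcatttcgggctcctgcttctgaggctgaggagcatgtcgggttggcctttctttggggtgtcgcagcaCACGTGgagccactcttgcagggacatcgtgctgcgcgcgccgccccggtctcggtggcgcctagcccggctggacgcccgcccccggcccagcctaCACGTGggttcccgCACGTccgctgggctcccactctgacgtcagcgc
Pgk1, chrX:106186850-106187099, plus strand: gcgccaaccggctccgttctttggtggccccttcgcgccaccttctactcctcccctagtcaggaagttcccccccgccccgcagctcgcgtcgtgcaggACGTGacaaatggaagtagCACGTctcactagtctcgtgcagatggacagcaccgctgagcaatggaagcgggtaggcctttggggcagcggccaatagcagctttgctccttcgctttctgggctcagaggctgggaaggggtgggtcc
Pgam1, chr19:41911621-41911870, plus strand: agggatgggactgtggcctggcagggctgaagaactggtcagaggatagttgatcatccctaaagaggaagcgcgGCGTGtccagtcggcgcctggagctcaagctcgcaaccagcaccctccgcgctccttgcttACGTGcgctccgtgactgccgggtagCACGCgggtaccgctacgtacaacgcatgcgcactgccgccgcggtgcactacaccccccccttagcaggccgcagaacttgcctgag
The Ldha window holds 2 copies of CACGTG, beginning 145 and 48 bases before the start site, and a further ACGTG match 34 bases before it. The Pgk1 window holds 2 ACGTG matches, at 150 and 131 bases, and no GCGTG. The Pgam1 window holds ACGTG at 114 bases and GCGTG matches at 175 and 88 bases. The Pgk1 and Pgam1 windows touch no annotated transcript, and the Ldha window lies in an intron of 1 longer Ldha transcript and touches no exon (GENCODE M21).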

How the data were processed

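Per the labels' protocols, RNA from 12 whole lungs was extracted with TRIzol and read as 151 bp pairs. Tools named in the submitters' processing notes are STAR 2.7.8a, RSEM 1.3.3, cutadapt 4.8, MultiQC 1.20 and FastQC 0.11.8, with the build GRCm38. Settings, strandedness and gene models are not given in the sources used here. Deposited expected counts, held as whole numbers, were made by the authors with RSEM and were used as they stand. The deposited TPM values, made by the authors from the same estimates, gave levels and shares. The deposited FPKM values of the authors served only in an alternative fit. No table column lacked a sample (0).

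Genes were kept by edgeR's filterByExpr (count minimum 10, total minimum 15) and scaled by TMM. They were tested with edgeR 4.0.16's robust quasi-likelihood fit over 3 groups in R 4.3.3, with Benjamini-Hochberg adjustment over 17909 genes. Every adjusted p of a gene in the text is from this fit or, where named, a variant of it. The adjusted p of the isozyme shares is from their permutation tests. The common biological coefficient of variation was 0.119. A count of 3, the limit that a count of 0 allows, was 0.0719 to 0.125 CPM by library; intervals and this limit cover sampling and fitted error only. Mouse numbers recur between groups, and nothing in the labels pairs mice; each number is a separate mouse.

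Values in all 12 libraries are given for each gene past the threshold in any comparison and for the most abundant gene of each role; up to 4 called genes of each companion list are named. Ldhb, Hk3 and Slc16a3 are shown in full by choice made after their values were seen. The companion lists covered other glycolysis and glucose transport, pyruvate dehydrogenase, pentose phosphate, glycogen, regulators and hypoxia targets, beside lists of cell type markers. One gene of a companion list is not reported here and is left out of its counts. The 35 genes and all lists were chosen with earlier results of these data known. Alternatives were other scalings, no filter, a replicate block, 2 groups per fit, each library left out, DESeq2 1.42.0, and limma 3.58.1 on log2(TPM + 1), log2(TPM + 0.1) and log2(FPKM + 1). Coordinates are from GENCODE M21 (GRCm38).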

Additional observations from a re-analysis of the deposited data

Results flagged for a closer look

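In groups of 4, a lung was flagged where its gap to the nearest value was large beside the whole range of its group (Dixon's test at 95%). This marked 9 of 105 groups of 4, and chance marks about 1 in 20.

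Nanoparticle mouse 3 gave 4 of them. It was high for Pfkl (30.14 TPM, next 23.81), Aldoa (574.89, next 491), Aldoc (8.71, next 7.52) and Slc16a3 (20.87, next 11.73). Its neutrophil markers summed to 5895 TPM, against 181 to 615 in the other libraries, and their part in these values was not tested.

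Vehicle mouse 1 gave 3. It was low for Gapdh (578.64 TPM, next 660.77) and Pgk1 (96.42, next 102.58) and high for Slc16a1 (13.72, next 11.77). Its dividing-cell marker sum, 41.0 TPM, was the lowest of the vehicle group, where the others ran from 56.1 to 85.1. So were its sums for SPP1-type and alveolar macrophages, monocytes, scar fibroblasts and transitional epithelium, while its endothelial and lymphocyte sums were the highest. Nanoparticle mouse 3 had the lowest dividing-cell sum of all 12 libraries, 27.3 TPM. The part of these cell types was not tested.

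Eno2 was low in nanoparticle mouse 2 (2.12 TPM, next 2.96). Tkt was low in vehicle mouse 3 (120.72 TPM, next 128.4).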

How the results depend on the processing

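No called result changed direction in any alternative. Gapdh, Pgk1, Pgam1, Pkm and Ldha passed in both comparisons with day 14 in all 23 alternatives. All genes called with vehicle (1845) became 1051, 995, 381 and 1063 under limma on log2(TPM + 1), log2(TPM + 0.1), log2(TPM + 1) unfiltered and log2(FPKM + 1), and 719 to 2162 when 1 library was left out, at 719 to 1012 without Day 14 replicate 1 or 3 or vehicle replicate 1 or 3. Of the 35 genes, 7 with vehicle became 12 with 2 groups only, 13 with DESeq2 (10 lower, and Ldhb, Pfkp and Pdk1 higher), and 6 to 14 by leaving out 1 library, 14 being without nanoparticle replicate 3. With nanoparticles, 2636 genes became 1672 with 2 groups only and 1607, 1577, 824 and 1629 under the same limma fits, and 1363 to 2934 by leaving out 1 library, at 1363 to 1625 without Day 14 replicate 1 or 3 or nanoparticle replicate 2 or 4. The 14 of 35 became 7 with 2 groups only, 8, 8, 5 and 6 under limma, and 6 to 16 by leaving out 1 library, at 6 or 7 without Day 14 replicate 1 or 3 or nanoparticle replicate 1, 2 or 4. The causes were not tested. Between nanoparticle and vehicle lungs, 0 genes became 19 with DESeq2 and 0 of the 35 passed in any alternative.

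No sign of pairing by mouse number was seen: 2 of 12 same-numbered pairs correlated above 0.1 in their deviations, and 6 of 36 others did. So coarse a count cannot exclude a pairing. With the replicate number as a block, 1673, 2419 and 0 genes and 9, 13 and 0 of the 35 passed with vehicle, with nanoparticles and between them, and Tpi1 missed the threshold with nanoparticles. With 4 lungs per group, changes of 0.18 to 0.26 log2 units in size sat near the threshold (Pfkp, Pdk1, Pdk2, Tpi1 and Pfkl). Some larger nanoparticle changes were unstable too. Aldoc (−0.38) and Eno3 (0.44) passed in 14 of 23 alternatives, and Eno1 (−0.35) and Slc2a3 (1.06) in 17 of 23.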
